A study of Mus musculus with 12 samples.

Results

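Oxidative phosphorylation (OXPHOS) genes were examined in lung lymphatic endothelial cells (LECs) of mice that breathed cigarette smoke (CS) or room air (RA). Of the 52636 gene identifiers in the count tables, 108 were protein-coding in the GENCODE M21 annotation and had symbols of the respiratory complexes (the prefixes Ndufa, Ndufb, Ndufc, Ndufs, Ndufv, Uqcr, Cox4i, Cox5, Cox6, Cox7, Cox8, Atp5, mt-Nd, mt-Cytb, mt-Co and mt-Atp, and the genes Sdha, Sdhb, Sdhc, Sdhd, Cyc1 and Cycs). The nuclear genome encoded 95 of them and the mitochondrial chromosome 13, and these sets were kept apart throughout. By complex there were 36 nuclear and 7 mitochondrial genes for complex I, 4 nuclear genes for complex II, 9 and 1 for complex III, 1 for cytochrome c, 20 and 3 for complex IV, and 16 and 2 for complex V. The symbols also took in the 8 complex I assembly factors Ndufaf1 to Ndufaf8 and Atp5s, a relative of an ATP synthase coupling factor.

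The complexes sit in the inner mitochondrial membrane. Complexes I and II take electrons from NADH and succinate, complex III and cytochrome c pass them on, complex IV hands them to oxygen, and complex V (ATP synthase) uses the proton gradient that I, III and IV build to make ATP. The proteins come from separate genomes: the mitochondrial chromosome, read as long polycistronic transcripts that are cut into single messengers, encodes the membrane core of complexes I, III, IV and V, while the nucleus encodes the rest and every protein that copies and transcribes mitochondrial DNA. Endothelial cells are known to make most of their ATP by glycolysis, and LECs are known to depend on respiration and fatty acid oxidation for their identity.

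RNA was sequenced from LECs sorted from the lungs of mice that carry a Prox1-EGFP transgene, which marks cells expressing the lymphatic transcription factor Prox1 with green fluorescence. All groups carried the transgene, and the sorted cells were alive, negative for a lineage cocktail and EpCAM, and positive for CD31 and GFP. Acute RA (1 female, F, and 1 male, M) and acute CS (F, M) libraries are labelled 8wk, and each pooled cells of several mice. The labels give 8wk as an age and the study's methods as an exposure time. By the study's account exposure began when the mice were already several weeks old, so 8wk is not their age at harvest. Chronic RA (F, M1, M2) and chronic CS (F, M1 to M4) libraries are labelled Aged, came from whole-body exposure of at least 24 weeks by the study's methods and were not pooled, so that exposure length, age and pooling cannot be told apart. Library totals ran from 18821438 to 56998590 counts. The 3 shallowest libraries were chronic CS F (18821438), M1 (21596654) and M2 (22885446), whereas chronic CS M3 and M4 held 47494020 and 45436986, and results that rest on this split are given both ways.

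Markers of the labelled cell type were present in every library, but other cell types were too. The 8 lymphatic markers, among them Prox1, Flt4 and Lyve1, were above 0 in all 12 libraries. Their summed level was 14284 to 16074 CPM (counts relative to the library total, the usual sequencing level, scaled with TMM factors) in acute RA, 6190 to 9579 in acute CS, 19495 to 22030 in chronic RA and 14410 to 20715 in chronic CS, and 3 of the 8 were called lower in acute CS. Blood endothelial markers summed to 3140 to 3913 CPM in acute RA and 8072 to 9938 in acute CS (9 of 12 called higher), leukocyte markers to 235 to 241 and 1383 to 1884 (7 of 8 called higher), and alveolar macrophage markers to 714 to 816 and 2537 to 2642 (4 of 11 called higher and 1 lower). In the chronic arm blood endothelial markers summed to 3653 to 3750 CPM in RA and 3171 to 4058 in CS. Leukocyte markers summed to 149 to 222 and 143 to 382, and alveolar macrophage markers to 616 to 717 and 654 to 1096. The 3 lists had 0 edgeR calls there (6, 3 and 4 at an unadjusted p under 0.05, and 4, 1 and 3 by DESeq2). The gene Plvap held most of the chronic blood endothelial sums, at 2689 to 2785 CPM in RA and 1704 to 2753 in CS. Vwf (51.0 to 61.4 and 88.6 to 276 CPM), Esam, Mcam and Aplnr were higher in every chronic CS than every chronic RA library. The other blood endothelial markers overlapped. Mrc1 held most of the chronic macrophage sums, at 560 to 597 CPM in RA and 535 to 621 in CS. In bulk libraries such as these, fewer cells of a type and less RNA per cell cannot be told apart, and the part these cells played in the values below was not tested.

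Near-identical nuclear copies bear on what the mitochondrial rows hold. In the annotation (GRCm38), 7 unprocessed pseudogenes lie side by side on the minus strand at chr1:24611535-24616197, each a copy of a protein gene of the mitochondrial chromosome. The copies Gm28661, Gm10925, Gm28437, Gm10222 and Gm28439 had 0 mismatches to mt-Co2 over 681 bases, mt-Atp6 over 678, mt-Co3 over 783, mt-Nd4l over 294 and the first 876 bases of mt-Nd4. Gm28438 had 1 mismatch in 345 bases of mt-Nd3 and Gm29216 had 6 in 492 bases of mt-Co1. The first 90 coding bases of mt-Co2, a core subunit of complex IV, are shown with those of its chromosome 1 copy because no read that lies within them can be assigned to either place. The coordinates are chrM:7013-7102 (plus strand) and chr1:24615476-24615565 (minus strand), written 5′ to 3′ in lower case as there is no base to mark.
mt-Co2: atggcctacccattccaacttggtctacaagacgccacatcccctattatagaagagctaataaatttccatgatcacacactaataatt
Gm28661: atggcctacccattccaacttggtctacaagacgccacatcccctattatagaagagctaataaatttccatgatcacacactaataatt
For contrast, mt-Nd2 of complex I has an older copy on chromosome 2, Gm13339, with 17 mismatches in 510 bases. A stretch of mt-Nd2 (chrM:4685-4774, plus strand) and its counterpart (chr2:22590201-22590290, minus strand) are shown with their 6 differing bases in capitals.
mt-Nd2: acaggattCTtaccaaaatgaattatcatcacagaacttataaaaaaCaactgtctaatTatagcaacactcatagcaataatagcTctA
Gm13339: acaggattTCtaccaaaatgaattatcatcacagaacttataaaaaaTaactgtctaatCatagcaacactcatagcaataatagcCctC
The count tables leave out reads with more than 1 best position, so rows with a perfect copy hold what was left.

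Levels per length differed widely among the 13 mitochondrial genes. Counted in runs of 50 bases, 7 genes shared over 10 percent of their sequence with other genes (mt-Co2 100%, mt-Co3 99.9%, mt-Atp6 99.5%, mt-Nd4l 98.8%, mt-Nd3 98.0%, mt-Nd4 62.2% and mt-Co1 51.1%), and 6 shared under 10 percent (mt-Nd2 8.19%, mt-Nd5 7.61%, and mt-Nd1, mt-Nd6, mt-Cytb and mt-Atp8 0%). In the 5 RA libraries, mt-Cytb, the cytochrome b of complex III, had the highest level per length of all members, at a mean of 666 FPKM (CPM per kilobase of exon). It was followed by mt-Co1, the catalytic subunit of complex IV, at 459 FPKM and mt-Nd1 of complex I at 452. By contrast, mt-Co2 and mt-Co3, whose proteins stand beside mt-Co1 in the same complex, were listed at 19.7 and 28.8 FPKM, mt-Nd3 at 9.76 and mt-Nd4l at 0.874. These rows have nearly complete copies, and mt-Atp8, which shares no run of 50 bases but has 21.1% of its exon bases in common with mt-Atp6, was also low at 9.26 FPKM, and the part of copies and overlaps in the levels was not tested. Fold changes were therefore taken only between libraries, gene by gene. Within the 13, mt-Cytb held 25.2% to 32.3% of the summed CPM of a library, mt-Co1 24.9% to 29.9% and mt-Nd1 14.7% to 18.4%.

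The summed level of the mitochondrial genes differed more between CS libraries than that of the nuclear genes. Summed over the 13 mitochondrial genes, the level was 2774 and 2228 CPM in acute RA F and M and 5362 and 3023 in acute CS F and M. In the chronic arm it was 2623, 2597 and 2354 CPM in RA F, M1 and M2, and 3740, 4322, 4815, 2207 and 2503 in CS F, M1, M2, M3 and M4. Both acute CS libraries were above both acute RA libraries, with CS F well above CS M. In chronic CS the F, M1 and M2 libraries lay above every RA library, M3 below all 3 chronic RA libraries and M4 among them. The group means were 2501 ± 386 CPM (SD, n = 2) in acute RA, 4192 ± 1654 (n = 2) in acute CS, 2524 ± 149 (n = 3) in chronic RA and 3517 ± 1132 (n = 5) in chronic CS, which are ratios of CS to RA of 1.68 and 1.39. As a share of all counts the 13 genes took 0.217% (Wilson 95% confidence interval, which covers counting error only, 0.215% to 0.218%) in chronic CS M3, the lowest library, and 0.531% (0.529% to 0.533%) in acute CS F, the highest.

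The 95 nuclear genes summed to 10179 and 10602 CPM in acute RA F and M and to 9267 and 11475 in acute CS F and M. They summed to 10065, 10678 and 10587 CPM in chronic RA F, M1 and M2 and to 9653, 10100, 9366, 9790 and 10193 in chronic CS F and M1 to M4. Acute RA lay between the acute CS libraries, of which CS M (74 of 93 nuclear genes tested above the acute RA mean, median log2 difference 0.14) was above all 5 RA libraries and CS F (24 of 93, −0.16) below them, and the chronic groups overlapped. Ratios of CS to RA were 0.998 (acute) and 0.940 (chronic), and the chronic ratio was 0.998 when shares of all counts replaced TMM-scaled CPM. The summed mitochondrial level over the summed nuclear level was 0.210 to 0.273 in the 5 RA libraries, 0.579 and 0.263 in acute CS F and M, 0.387, 0.428 and 0.514 in chronic CS F, M1 and M2, and 0.225 and 0.246 in M3 and M4.

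**Figure D1:**
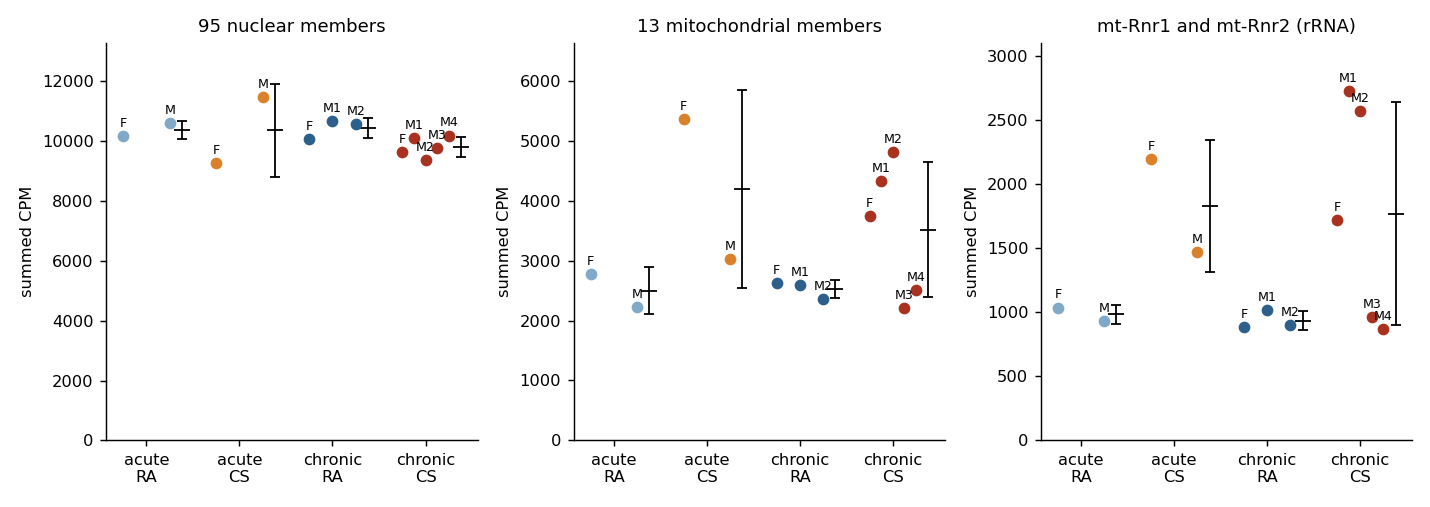
Summed CPM of the 95 nuclear members (left), the 13 mitochondrial members (middle) and the mitochondrial ribosomal RNA genes mt-Rnr1 and mt-Rnr2 (right) in each of the 12 libraries, with the group mean and SD beside the points. Nuclear sums stay between 9267 and 11475 CPM in every group, whereas mitochondrial sums reach 5362 CPM in acute CS F and 4815 in chronic CS M2 but 2207 in chronic CS M3.

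None of the 13 mitochondrial genes passed the test in acute CS against acute RA (edgeR quasi-likelihood F-test with Benjamini-Hochberg adjustment over 21440 genes at 0.05), where 745 genes or 3.47% of all tested were called. That number depends on the libraries, with 3 genes called without acute RA M, 79 without acute RA F, 175 without acute CS F and 858 without acute CS M. The log2 fold changes of the 13 were all above 0, from 0.54 (mt-Nd1) to 1.16 (mt-Nd6), with a median of 0.81 beside 0.04 for all genes tested. The 13 genes come from shared transcripts in the same libraries, so counts among them, here and below, are not independent observations. At an unadjusted p under 0.05 there were 4 of 13, mt-Nd5, mt-Nd6, mt-Co1 and mt-Co3, against a background of 15.7%, and DESeq2 called 0 of 13 (10% of the 19189 genes to which it gave an adjusted p). In 11 of 13 both CS libraries exceeded both RA libraries, against 27.4% of all genes, the exceptions being mt-Nd1 and mt-Nd2. The median half-width of the 95% interval of a fold change was 0.95, and the interval excluded 0 for the 4 genes named.

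Library by library, the acute change was mostly that of the F library. mt-Nd6, the one member read from the opposite strand of the mitochondrial chromosome, was at 36.7 and 27.9 CPM in acute RA F and M and at 92.9 and 51.4 in acute CS F and M (log2 fold change 1.16 ± 0.43 SE, edgeR adjusted p = 0.204). mt-Nd5, another membrane subunit of complex I, was at 198 and 158 CPM in RA and 475 and 243 in CS (1.01 ± 0.38, adjusted p = 0.211). mt-Co1 was at 742 and 565 CPM in RA and 1439 and 849 in CS (0.81 ± 0.31, adjusted p = 0.224). The library kit does not mark strand, so reads of mt-Nd6 and of RNA from the other strand at that place cannot be told apart. In each of these genes the CS F value was far above the other 3 and CS M stood closer to RA F than to CS F. Against the acute RA mean, the median log2 difference over the 13 genes was 1.14 in CS F and 0.38 in CS M, with 13 of 13 above that mean in both. Without CS F the median fold change of the comparison fell to 0.38, and without CS M it was 1.13.

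Chronic CS against chronic RA also had no call among the 13, and 0% of all 21440 genes were called in that comparison. All 13 log2 fold changes were again above 0, from 0.20 (mt-Nd3) to 1.46 (mt-Nd4l), with a median of 0.67 beside 0.01 for all genes, but this sign held for only 6 of 13 when M3 and M4 alone stood for chronic CS. At an unadjusted p under 0.05 there were 5 of 13 (mt-Atp6, mt-Co2, mt-Co3, mt-Atp8 and mt-Nd5), against a background of 10.9%, and DESeq2 called 0 of 13 (2.91% of 17979 genes, 524 in number). The groups were apart, with every CS library above every RA library, in 2 of 13, mt-Nd4l and mt-Atp8, against 3.92% of all genes, and mt-Nd4l held between 3 and 37 counts a library.

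mt-Atp6, which forms the proton channel of ATP synthase, was at 12.2, 13.6 and 11.4 CPM in chronic RA F, M1 and M2 and at 25.3, 31.2, 33.1, 14.0 and 13.5 in chronic CS F and M1 to M4 (0.92 ± 0.33, edgeR adjusted p = 0.376). mt-Co3 of complex IV was at 24.7, 20.5 and 21.9 CPM in RA and at 42.8, 48.1, 51.2, 22.4 and 22.8 in CS (0.74 ± 0.30, adjusted p = 0.422). mt-Cytb was at 752, 766 and 710 CPM in RA and at 1173, 1090, 1480, 670 and 740 in CS (0.47 ± 0.27, adjusted p = 0.541). In all of these F, M1 and M2 stood together above RA while M3 and M4 were within or close to the RA range. mt-Atp8, the small ATP synthase subunit whose frame overlaps that of mt-Atp6, also had groups apart, at 1.47, 1.64 and 1.85 CPM in RA and 3.26, 3.35, 3.66, 2.62 and 2.22 in CS (0.86 ± 0.37, adjusted p = 0.440).

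Measured against the chronic RA mean, the median log2 difference over the 13 genes was 0.68 in CS F, 1.06 in M1 and 1.16 in M2, with 13 of 13 above the mean in each. In M3 it was −0.13 with 4 of 13 above, and in M4 0.02 with 7 of 13 above. With F, M1 and M2 alone the median fold change of the chronic comparison was 1.06 and with M3 and M4 alone −0.08, and 0 of 13 were called in either. F, M1 and M2 are the 3 shallowest libraries of the series, and whether depth, handling or exposure set them apart cannot be told apart here.

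**Figure D2:**
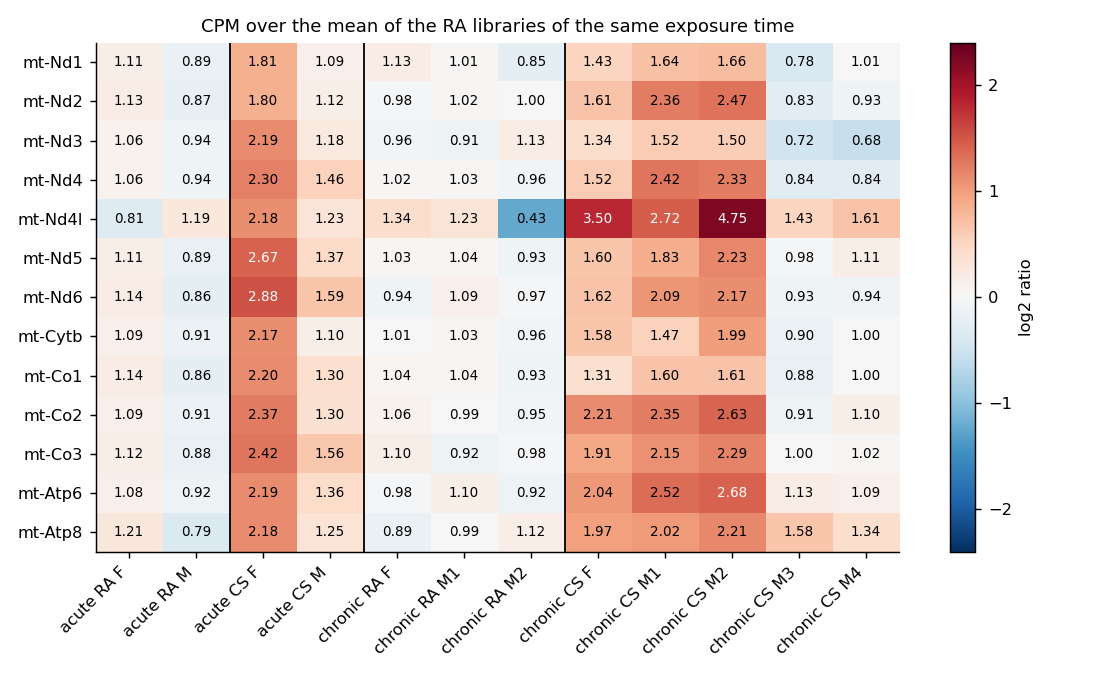
CPM of each of the 13 mitochondrial protein genes in the 12 libraries as a ratio to the mean of the RA libraries of the same exposure time, with the ratio printed in each cell and the colour on a log2 scale. Acute CS F and M and chronic CS F, M1 and M2 are above 1 in every row. Chronic CS M3 and M4 are near or below 1 in most. The widest values are in mt-Nd4l, a row of under 1 CPM.

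The same libraries were high in other readings of the mitochondrial chromosome. The ribosomal RNA genes mt-Rnr1 and mt-Rnr2 summed to 1038 and 934 CPM in acute RA, 2199 and 1470 in acute CS, 884, 1020 and 903 in chronic RA and 1721, 2731, 2573, 966 and 869 in chronic CS F and M1 to M4. These RNAs, the backbone of the mitochondrial ribosome, come from the same chromosome as the 13 protein genes. The 7 chromosome 1 copies summed to 92.8 and 76.1 CPM in acute RA, 203 and 122 in acute CS, 80.8, 83.1 and 78.1 in chronic RA and 164, 209, 218, 83.0 and 88.2 in chronic CS, so the copies were high in the same libraries as the mitochondrial rows. None of the 7 was called by edgeR, with log2 fold changes of 0.59 to 1.02 in acute CS (adjusted p = 0.290 to 0.757) and 0.73 to 1.06 in chronic CS (0.367 to 0.463). Restricted to the 6 mitochondrial genes with few shared runs, the sums were 1804 and 1466 CPM in acute RA, 3433 and 1866 in acute CS, 1617, 1595 and 1445 in chronic RA, and 2397, 2592, 3086, 1350 and 1559 in chronic CS. Ratios of CS to RA for these 6 were 1.62 and 1.42, and the shared rows alone gave 1.78 and 1.36. Both sets are part of the 13, whose ratios were 1.68 and 1.39, and the split was chosen after seeing the data.

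Marker genes of other cells did not follow the mitochondrial sums in every library. Alveolar epithelial markers, led by Sftpc, summed to 808 and 1121 CPM in acute RA, 6927 and 280 in acute CS, 372, 270 and 509 in chronic RA and 987, 1826, 3065, 4894 and 1159 in chronic CS F and M1 to M4. Acute CS F was the highest library in both readings, whereas chronic CS M3 had the highest epithelial sum of the chronic arm and the lowest mitochondrial sum. Of the 11 epithelial markers 1 was called in acute CS and 0 in chronic CS by edgeR, with 10 of 11 at an unadjusted p under 0.05 in chronic CS and 4 called by DESeq2, and Epcam was at 0 in 1 library. Mesenchymal markers summed to 904 and 905 CPM in acute RA, 986 and 1468 in acute CS, 419 to 469 in chronic RA and 565 to 878 in chronic CS (4 of 11 called higher in acute CS). Their part in the mitochondrial values was not tested.

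Between the RA groups the mitochondrial genes hardly differed in the median. In chronic RA against acute RA, 4 of 13 had a positive and 9 a negative log2 fold change, with a median of −0.04 and 0 calls, 0 at an unadjusted p under 0.05 and 0 by DESeq2 (over all genes edgeR called 0% and DESeq2 1.55%, and the unadjusted background was 7.01%). Since chronic RA and acute RA also serve as controls of the CS comparisons, these values are not independent of those above. A test of whether the CS effect differed between the arms, as an interaction in the same fit, called 0 of 13 against a background of 0.452%. None of the 13 reached an unadjusted p under 0.05 there, against 11.9% of all genes, and DESeq2 called 0 (5.33% of all genes).

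The nuclear genes varied little from library to library. The SD of log2 CPM over the 12 libraries had a median of 0.169 over the 93 nuclear genes tested, and 5.08% of all genes had a lower SD than that. For comparison, the median was 0.172 over 75 cytosolic ribosomal protein genes, 0.217 over 77 mitochondrial ribosomal protein genes, 0.194 over 18 genes of the tricarboxylic acid (TCA) cycle, 0.552 over the 13 mitochondrial genes, 0.594 over all genes tested and 0.252 over the 6374 genes with a mean log2 CPM over 5. The lowest SD of the 21440 genes tested was that of a member, Ndufb8, an accessory subunit of complex I, at 71.5 to 84.2 CPM. These SDs describe single libraries pooled over groups and are lower for abundant genes. Of the 95 nuclear genes 2 could not be tested, Cox7b2 (at most 2 counts in a library) and Cox8c (at most 5 counts), which are complex IV isoforms known from testis.

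In acute CS against acute RA, 0 of 93 nuclear genes were called by edgeR, 6 or 6.45% had an unadjusted p under 0.05 (4 higher and 2 lower, against 15.7% of all genes) and DESeq2 called 1, Ndufa4l2 (10% of all genes). Fold changes were positive in 48 and negative in 45, with a median log2 fold change of 0.00 beside 0.04 for all genes, which averages the opposite medians of CS F and CS M given above. The 95% interval lay within −1 to 1 for 82 of 93, and 7.53% of the nuclear genes had a change over 0.5 in size beside 48.3% of all genes. The acute groups were apart in 14 genes with CS higher and 11 with CS lower, against 27.4% and 22.5% of all genes. Chronic CS against chronic RA gave 0 calls, 5 or 5.38% with an unadjusted p under 0.05 (1 higher and 4 lower, against 10.9% of all genes) and 1 DESeq2 call, Cyc1 (2.91% of all genes). Here 35 were positive and 58 negative, with a median of −0.06, but 53 were positive and 40 negative when library sizes replaced TMM factors, a change that raised the median of all genes from 0.01 to 0.10. In this comparison 86 of 93 intervals lay within −1 to 1, and 3.23% of changes were over 0.5 in size beside 38.3% of all genes. Every CS library lay below every RA library in 9 genes and above in 0, against 5.49% and 3.92% of all genes.

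**Figure D3:**
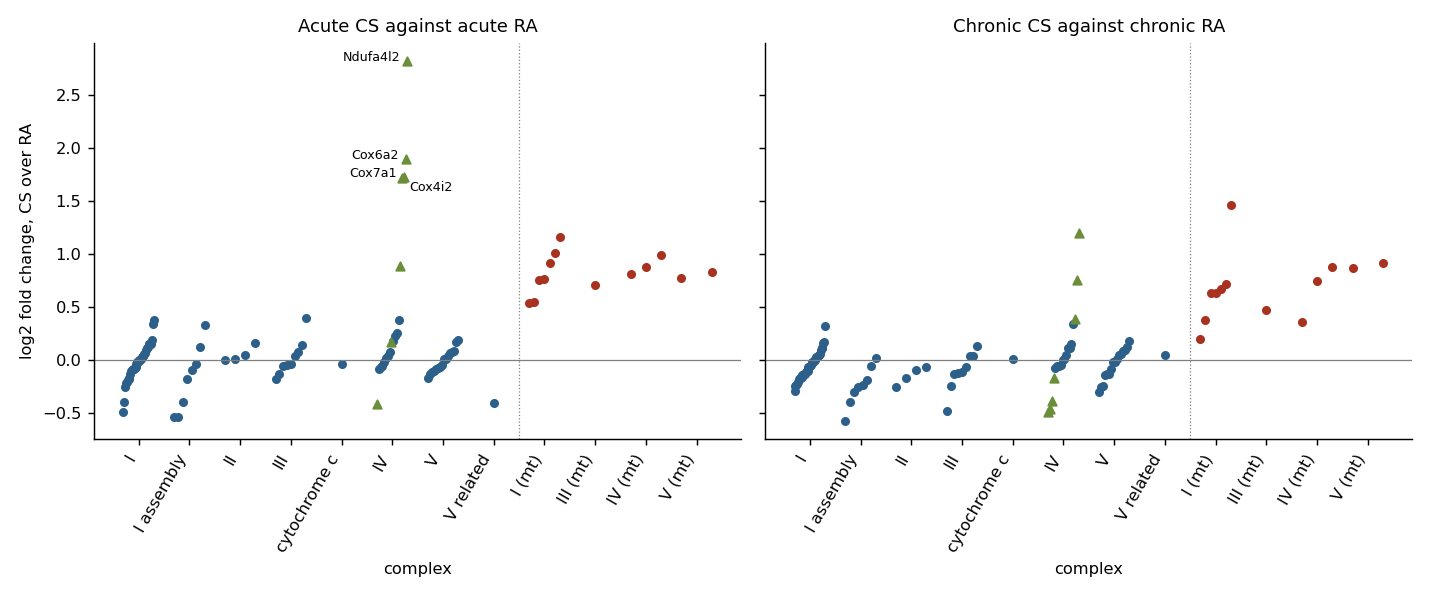
Log2 fold change of CS over RA for every member tested, ordered within each complex, in the acute (left) and chronic (right) comparison. Blue dots are nuclear members, green triangles tissue-restricted isoforms and relatives of complex IV subunits, and red dots mitochondrial members; most blue dots lie between −0.5 and 0.5, all red dots lie above 0, and Ndufa4l2, Cox6a2, Cox7a1 and Cox4i2 lie highest in the acute panel.

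Complex I, the largest complex, had 36 nuclear genes with a median level of 53.3 FPKM in RA, led by Ndufc2, a small membrane subunit, at 187. In acute CS 18 were positive and 18 negative (median −0.01) with 0 calls, 2 unadjusted p under 0.05 and 0 DESeq2 calls. Ndufab1, the mitochondrial acyl carrier protein, was at 56.6 and 61.6 CPM in acute RA F and M and 41.5 and 48.3 in acute CS (−0.40 ± 0.18, edgeR adjusted p = 0.307), and Ndufa8 at 80.0 and 82.2 in RA and 88.7 and 122 in CS (0.38 ± 0.17, adjusted p = 0.318). In both genes the acute groups were apart, in opposite directions, and in chronic CS they overlapped. In chronic CS 13 were positive and 23 negative (median −0.06), with 0 calls, 2 unadjusted p under 0.05 and 0 DESeq2 calls. The assembly factors, which guide complex I together and are not part of it, had low levels of 4.14 FPKM (Ndufaf2) to 21.2 FPKM (Ndufaf3) in RA, with Ndufaf8 at 19.2 and Ndufaf1 at 15.3. Ndufaf4 was at 36.1 and 40.5 CPM in acute RA and 25.3 and 27.5 in acute CS (−0.54 ± 0.22, adjusted p = 0.254), and Ndufaf7 at 45.2 and 33.8 in RA and 23.9 and 30.5 in CS (−0.54 ± 0.25, adjusted p = 0.338). The 8 factors together summed to 179 and 193 CPM in acute RA, 153 and 165 in acute CS, 170 to 189 in chronic RA and 140 to 170 in chronic CS, and 6 of 8 fold changes were negative in acute CS and 7 in chronic CS (6 with library sizes in place of TMM factors). None was called in either, with 1 and 0 at an unadjusted p under 0.05 and 0 by DESeq2. For all counts of complex I and its factors, the unadjusted shares over all genes were 15.7% (acute) and 10.9% (chronic). Those of DESeq2 were 10% and 2.91%. Ndufaf2 shares 65.7% of its exon bases with another gene, and Ndufb6 shares 39.0%, so that their counts are uncertain.

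The subunits that carry out electron transfer in complexes I to III had no edgeR call in chronic CS. This core of 13 genes included Ndufv1, Ndufv2, Ndufs1, Ndufs7 and Ndufs8, which hold the flavin and iron-sulfur clusters of complex I, Sdha to Sdhd of complex II, and Cyc1 and Uqcrfs1, the cytochrome c1 and Rieske protein of complex III. In chronic CS 2 were positive and 11 negative with a median of −0.17 (4 and 9 with library sizes in place of TMM factors, median −0.09). Of the core, 3 had an unadjusted p under 0.05 against a background of 10.9%, and DESeq2 called 1 against 2.91%. All nuclear genes tested split 35 and 58 under the same TMM scaling. In acute CS 5 were positive and 8 negative, with a median of −0.04 and 0 calls, 0 at an unadjusted p under 0.05 and 0 by DESeq2.

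Cyc1 (chr15:76343523-76346260, plus strand) was the member with the smallest p of the chronic comparison. It was at 200, 194 and 196 CPM in chronic RA F, M1 and M2 and at 124, 147, 119, 148 and 168 in chronic CS F and M1 to M4. All 5 CS libraries were below all 3 RA libraries, M3 and M4 included, and the fold change was −0.48 ± 0.12 on the log2 scale (edgeR adjusted p = 0.265, DESeq2 adjusted p = 0.0238, and 0.133 to 0.682 over the edgeR alternatives). In the acute arm, at 166 and 191 CPM in RA and 158 and 188 in CS, the groups overlapped (−0.04 ± 0.17). Over the 12 libraries its log2 CPM was most like that of Atp5o (Pearson r = 0.86), Atp5b (0.85) and Atp5c1 (0.83), which are ATP synthase subunits sharing the same libraries and scaling.

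Uqcrc1, a core protein on the matrix side of complex III, was at 328, 344 and 334 CPM in RA and at 265, 264, 285, 293 and 301 in CS (−0.25 ± 0.10, edgeR adjusted p = 0.409). Ndufv1, which binds NADH and the flavin, was at 211, 221 and 228 CPM in RA and at 183, 184, 183, 179 and 220 in CS (−0.21 ± 0.09, adjusted p = 0.440). Uqcrc1 had groups apart, and Ndufv1 did not because of the M4 library. Ndufs4, a late-joining complex I subunit, was at 52.9, 57.5 and 57.8 CPM in RA and 48.0, 39.6, 53.7, 46.6 and 49.1 in CS (−0.24 ± 0.11, adjusted p = 0.459).

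In complex III the small subunits Uqcr11 and Uqcr10 had the highest nuclear levels, 160 and 145 FPKM in RA. As a whole, the 9 nuclear genes summed to 1187, 1262 and 1225 CPM in chronic RA F, M1 and M2 and to 1104, 1088, 1112, 1106 and 1092 in chronic CS, a ratio of 0.899 with every CS library below every RA library. As a share of all counts the groups overlapped, at 0.115% to 0.120% in RA and 0.106% to 0.117% in CS. Complex II, whose 4 genes also belong to the TCA cycle, had 0 of 4 positive fold changes in chronic CS (−0.26 to −0.07) and sums of 786 to 886 CPM in RA and 657 to 874 in CS, which overlapped. Sdha, the flavoprotein of complex II, had the highest level per length there, 105 FPKM in RA. Cycs, the soluble electron carrier between complexes III and IV, was at 42.5, 50.1 and 49.8 CPM in chronic RA and 44.8, 48.2, 52.0, 45.8 and 47.3 in chronic CS, with a fold change of 0.01 ± 0.12 and overlapping groups.

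**Figure D4:**
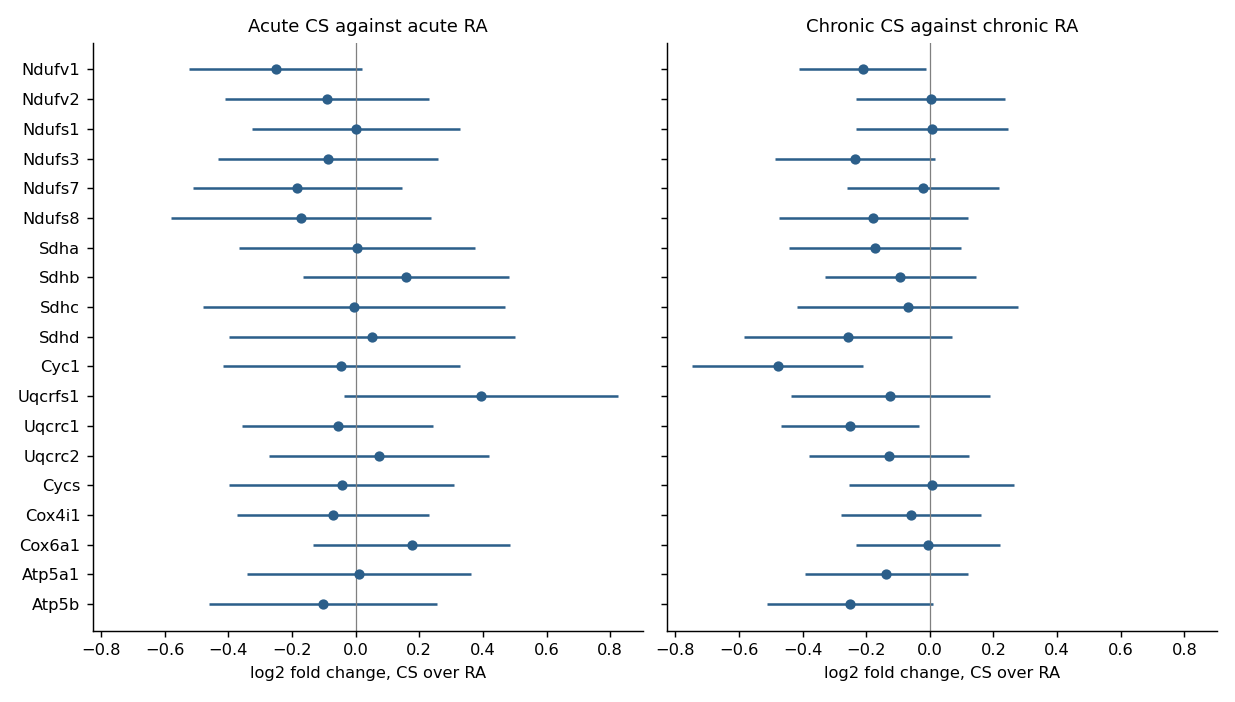
Log2 fold change of CS over RA (points) with its 95% confidence interval from the edgeR fit (lines) for 19 nuclear subunits: members of the electron-transfer core of complexes I to III, cytochrome c, the core proteins Uqcrc1 and Uqcrc2, and the main subunits of complexes IV and V. In the chronic panel most points lie left of 0 and the interval of Cyc1 lies farthest from it (−0.75 to −0.21); in the acute panel all 19 intervals include 0.

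ATP synthase had 16 nuclear genes, 8 positive and 8 negative in acute CS and 7 and 9 in chronic CS. None had an edgeR call in either, with 0 at an unadjusted p under 0.05 (15.7% and 10.9% of all genes) and 0 by DESeq2 (10% and 2.91%). Atp5b, the catalytic beta subunit, had the highest level per length of complex V, 262 FPKM in RA, followed by Atp5a1, the alpha subunit, at 192 and Atp5h of the stalk at 127. It was at 1093, 1146 and 1176 CPM in chronic RA and 912, 888, 830, 1050 and 1098 in chronic CS (−0.25 ± 0.12, edgeR adjusted p = 0.468), with M4 inside the RA range. Atp5o, in the peripheral stalk, was at 113, 112 and 113 CPM in RA and 79.4, 103, 65.6, 103 and 106 in CS. However, 47.9% of its exon bases are shared with D430001F17Rik, Gm15976 and another annotation entry that is also named Atp5o. The membrane ring subunit c is made from 3 genes for the same mature protein, and their mix was nearly fixed: Atp5g3 held 66.1% to 72.2% of the FPKM of the 3 in a library, Atp5g2 18.0% to 22.8% and Atp5g1 8.40% to 12.8%.

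Complex IV held the largest nuclear changes, and they were in rows of low level. Its 20 nuclear genes include subunits with tissue-restricted partners: Cox4i2 (lung and hypoxia) beside Cox4i1, Cox6a2, Cox7a1 and Cox8b (heart and skeletal muscle) beside Cox6a1, Cox7a2 and Cox8a, Cox6b2 (testis) beside Cox6b1, and Ndufa4l2 (a hypoxia-induced relative) beside Ndufa4. The common forms were abundant in RA, with Cox6a1 at 377 FPKM, Cox6b1 at 296 and Cox8a at 238. The restricted forms were not, with Ndufa4l2 at 1.02 FPKM, Cox7a1 at 3.11, Cox4i2 at 3.19, Cox6b2 at 3.53, Cox6a2 at 3.61 and Cox8b at 26.1. Of the 18 tested, 13 were positive in acute CS (median 0.17) and 9 in chronic CS (median 0.00), and 0 were called by edgeR in either. At an unadjusted p under 0.05 there were 3 and 1, against 15.7% and 10.9% of all genes. DESeq2 called 1 and 0, against 10% and 2.91% of all genes.

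Ndufa4l2 (chr10:127514967-127517154, plus strand) had the smallest p of all members in the acute comparison. Its level was 1.23 and 0.568 CPM in acute RA F and M and 8.72 and 4.10 in acute CS F and M (log2 fold change 2.83 ± 0.74, edgeR adjusted p = 0.0664, DESeq2 adjusted p = 0.00218, and 0.0611 to 0.430 over the edgeR alternatives). An exact two-sided permutation test cannot go below p = 0.333 with 2 against 2 libraries. In chronic RA it was at 1.25, 1.09 and 1.46 CPM and in chronic CS at 3.73, 4.53, 3.41, 1.80 and 1.15, so F, M1 and M2 were above RA, M3 slightly so and M4 within it (1.20 ± 0.53, adjusted p = 0.453). Its share of the FPKM of the pair with Ndufa4 was 0.724% to 1.11% in acute RA, 2.99% to 7.30% in acute CS, 1.60% to 2.42% in chronic RA and 1.09% to 5.47% in chronic CS. The members with log2 CPM most like it over the 12 libraries were mt-Nd6 (Pearson r = 0.92), mt-Co3 (0.92) and mt-Co1 (0.90), as a description of libraries that share depth and scaling.

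Cox4i2 was at 1.64 and 3.06 CPM in acute RA, 10.8 and 4.71 in acute CS, 2.73, 2.42 and 2.71 in chronic RA and 2.57, 4.49, 9.73, 3.30 and 2.06 in chronic CS (acute 1.72 ± 0.73, edgeR adjusted p = 0.281). Cox6a2 was at 1.94 and 0.832 CPM in acute RA, 2.85 and 7.53 in acute CS, 3.04, 3.20 and 3.25 in chronic RA and 1.16, 1.85, 4.24, 1.59 and 2.65 in chronic CS (acute 1.90 ± 0.72, adjusted p = 0.216). Cox7a1 was at 0.777 and 0.832 CPM in acute RA, 2.22 and 3.12 in acute CS, 2.22, 2.30 and 2.18 in chronic RA and 0.735, 4.05, 0.790, 1.12 and 1.24 in chronic CS (acute 1.73 ± 0.81, adjusted p = 0.338). Within the acute arm Cox6a2 and Cox7a1 were highest in CS M, and chronic CS was on average below chronic RA in each. Cox8b, the other muscle form, was at 10.5 and 7.49 CPM in acute RA, 4.87 and 8.59 in acute CS, 12.4, 9.27 and 7.42 in chronic RA and 9.72, 4.58, 7.23, 5.98 and 9.65 in chronic CS, with overlapping groups in both arms (acute −0.42 ± 0.45, edgeR adjusted p = 0.778). The interaction of exposure time and smoke had an unadjusted p under 0.05 in these 2 of the 93 nuclear genes, against 11.9% of all genes (Cox6a2, 2.36 ± 0.87, adjusted p = 0.308; Cox7a1, 2.22 ± 0.99, adjusted p = 0.405), and DESeq2 called 0 (5.33% of all genes).

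Markers of muscle and mural cells, in which some of these isoforms are known, matched the isoforms in some libraries and not in others. The 10 pericyte and smooth muscle markers, among them Acta2 and Kcnk3, summed to 26.3 and 47.8 CPM in acute RA, 307 and 279 in acute CS, 19.1, 19.1 and 41.1 in chronic RA and 93.4, 84.4, 170, 119 and 85.7 in chronic CS F and M1 to M4. In acute CS 3 of 10 were called higher, in chronic CS 0 were called (6 at an unadjusted p under 0.05 and 4 by DESeq2), and Rgs5, a defining pericyte marker, was at 0 in 3 libraries and Cnn1 in 1. The 10 cardiac muscle markers, among them Myh6 and Tnnt2, summed to 94.5 and 35.4 CPM in acute RA, 89.9 and 324 in acute CS, 136, 157 and 146 in chronic RA and 36.8, 119, 124, 52.7 and 84.3 in chronic CS. Of these 0 of 10 were called in either CS comparison (2 and 1 at an unadjusted p under 0.05, 1 and 0 by DESeq2), and Nppa and Ryr2 were at 0 in 3 and 5 libraries. Erythroid markers summed to 37.7 and 69.9 CPM in acute RA, 10.7 and 698 in acute CS, 196 to 433 in chronic RA and 9.69 to 349 in chronic CS, with 0 called in either, 0 at an unadjusted p under 0.05 and 0 by DESeq2. Chronic CS M1 and M2, where Cox7a1 and Cox6a2 had their chronic maxima, held the highest cardiac sums of chronic CS but lower ones than all 3 chronic RA libraries, and acute CS M held the highest of all 12 libraries together with the highest Cox6a2. Pericyte sums were above RA in all 5 chronic CS libraries. Cox4i2 was above chronic RA in M1, M2 and M3, within the RA range in F and below it in M4. Its chronic maximum was in M2, which also held the highest chronic pericyte sum. Ndufa4l2 and the pericyte sum were both higher in acute CS than in acute RA, and in chronic CS Ndufa4l2 exceeded RA except in M4. The part of these cells in the isoform values was not tested.

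**Figure D5:**
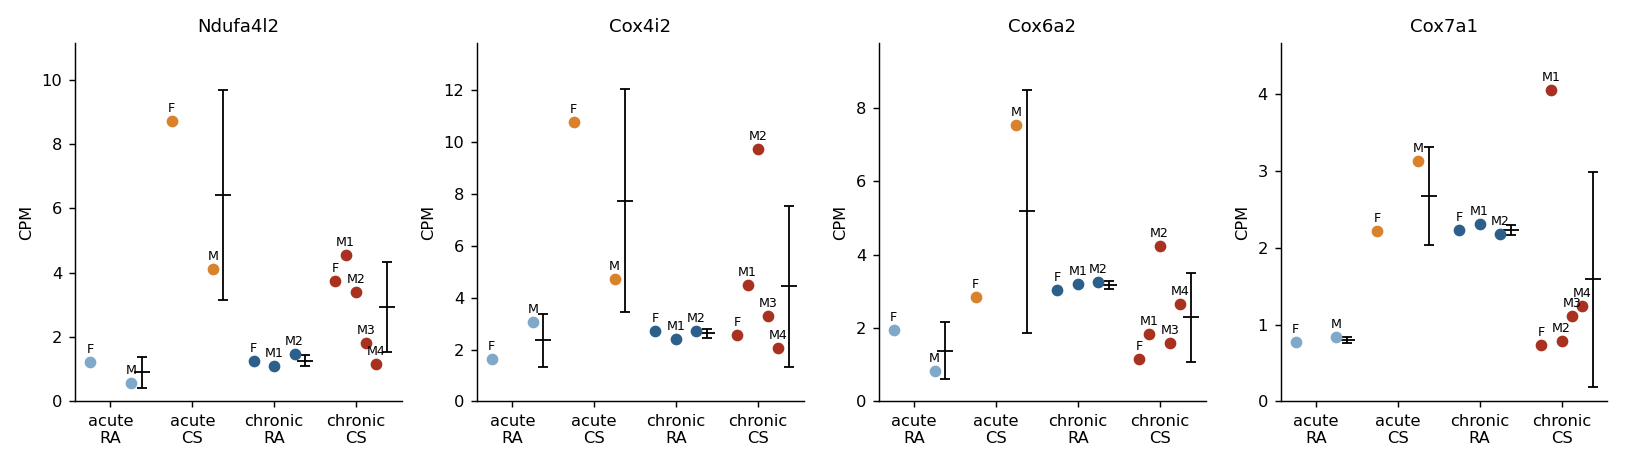
CPM of Ndufa4l2, Cox4i2, Cox6a2 and Cox7a1 in each library, with the group mean and SD beside the points and a separate axis for each gene. Ndufa4l2 and Cox4i2 are highest in acute CS F (8.72 and 10.8 CPM), Cox6a2 in acute CS M (7.53) and Cox7a1 in chronic CS M1 (4.05).

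Among the RA groups the nuclear genes gave 0 calls in chronic RA against acute RA, 1 unadjusted p under 0.05 (against 7.01% of all genes) and 0 by DESeq2. That gene was Ndufa4, a complex IV subunit despite its name, at 139 and 98.2 CPM in acute RA and 92.8, 84.9 and 74.1 in chronic RA (−0.50 on the log2 scale, edgeR adjusted p = 0.708). Cox5a, Cox7c and Atp5k, small subunits of complexes IV and V, followed at −0.29, −0.30 and −0.31 (adjusted p = 0.728 to 0.739). The largest changes were Cox7a1 (1.47, adjusted p = 0.739) and Cox6a2 (1.19, adjusted p = 0.744), which stood higher in chronic RA together with the cardiac marker sum given above. Positive and negative changes numbered 43 and 50 (22 and 71 with library sizes in place of TMM factors, which moved the median of all genes from 0 to −0.10).

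Genes that build, regulate or feed the chain were read from lists beside the members. Of 40 further assembly factors tested, 0 were called in acute CS (median −0.05; 1 at an unadjusted p under 0.05; 0 by DESeq2) and 0 in chronic CS (−0.07; 2; 0). Of 28 genes that maintain and transcribe mitochondrial DNA, 0 were called in acute CS (−0.17; 4; 2 by DESeq2) and 0 in chronic CS (−0.09; 2; 0). Polg, the mitochondrial DNA polymerase, was at a mean of 120 CPM in acute CS and 172 in acute RA (−0.52 ± 0.15, edgeR adjusted p = 0.0916). The 18 TCA cycle genes gave 0 calls in acute CS (−0.04; 3; 2) and 0 in chronic CS (−0.12; 1; 0). The 77 mitochondrial ribosomal protein genes, which make the ribosomes that translate the 13 mitochondrial messengers, gave 0 calls in acute CS (0.02; 3; 3) and 0 in chronic CS (−0.12; 3; 0). The 75 cytosolic ribosomal protein genes gave 0 calls in acute CS (0.09; 4; 0) and 0 in chronic CS (0.03; 7; 1). Over all genes the unadjusted shares were 15.7% and 10.9% and those of DESeq2 10% and 2.91%, and the medians are on the TMM scale.

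Calls in these lists fell on 2 genes, both higher in acute CS. Epas1, which encodes the hypoxia-inducible factor HIF-2 alpha and was 1 of 17 regulators tested, was at 124 and 95.3 CPM in acute RA F and M and 998 and 464 in acute CS (2.74 ± 0.39, edgeR adjusted p = 0.0057). Ucp2, an uncoupling protein relative of the inner membrane and 1 of 19 genes of uncoupling and ATP exchange tested, was at 139 and 154 CPM in RA and a mean of 649.7 in CS (2.15 ± 0.27, adjusted p = 0.0040). In both the acute groups were far apart, and DESeq2 called 3 genes of each list. In chronic CS neither was called, with Epas1 at 152 to 160 CPM in RA and 141 to 279 in CS and Ucp2 at 124 to 175 in RA and 155 to 241 in CS; the regulators had 3 unadjusted p under 0.05 and 1 DESeq2 call there, and the uncoupling list 2 and 0. Epas1 is also abundant in blood endothelium and Ucp2 in leukocytes, whose marker sums rose in the same libraries as given above, and their part was not tested.

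Promoters of the nuclear members were searched for motifs of factors known to drive respiratory genes. RefSeq windows (GRCm38.p6, 300 bases, from 250 before to 50 after the start) matched 75 of the 95 by symbol. A symbol was counted if any of its windows held the motif. The NRF1 motif GCGCATGCG, on either strand, was in 11 of 75 (14.7%) and in 1.95% of all 27025 symbols with a window. The YY1 motif AAGATGGCG was in 8 (10.7%) and 1.64%. The cyclic AMP element TGACGTCA was in 5 (6.67%) and 2.03%, the ETS motif CCGGAAGT of GABP in 5 (6.67%) and 4.31%, and the ERR motif TCAAGGTCA in 2 (2.67%) and 0.466%. In all, 28 of 75 held at least 1 of the 5. For comparison, 69 mitochondrial ribosomal protein genes with a window held NRF1 in 10.1%, YY1 in 11.6%, ETS in 17.4%, the cyclic AMP element in 2.90% and ERR in 0%. A match of letters is no bound site, and the members with a motif were not tested apart. The windows of Cycs and Cox6a1 are shown, since both steady, ubiquitous subunits hold the NRF1 letters, which are in capitals along with the cyclic AMP element of Cycs. Cycs lies at chr6:50566520-50566819 (minus strand), with its NRF1 match starting at −61 from the start site and TGACGTCA at −169.
Cycs: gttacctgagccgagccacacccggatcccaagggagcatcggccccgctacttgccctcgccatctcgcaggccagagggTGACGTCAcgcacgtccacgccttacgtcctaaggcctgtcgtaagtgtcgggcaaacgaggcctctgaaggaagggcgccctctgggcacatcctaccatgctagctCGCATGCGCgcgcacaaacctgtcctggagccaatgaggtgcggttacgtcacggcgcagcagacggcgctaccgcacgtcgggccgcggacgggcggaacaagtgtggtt
Cox6a1 lies at chr5:115348909-115349208 (minus strand), with overlapping NRF1 matches on both strands starting at −162 and −161.
Cox6a1: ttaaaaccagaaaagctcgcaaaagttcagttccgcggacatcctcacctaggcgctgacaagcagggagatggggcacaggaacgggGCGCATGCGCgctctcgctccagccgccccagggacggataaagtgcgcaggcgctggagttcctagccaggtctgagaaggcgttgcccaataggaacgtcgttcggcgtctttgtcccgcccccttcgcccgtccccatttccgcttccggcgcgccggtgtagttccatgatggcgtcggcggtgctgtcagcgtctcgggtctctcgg
Across the 12 libraries Cox6a1 ran from 227 to 333 CPM and Cycs from 42.5 to 61.0 CPM.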

How the data were processed

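The authors sequenced poly(A) RNA of sorted lung LECs, made with a SMART-Seq v4 low-input kit and Nextera XT. They trimmed reads with Skewer and deposited counts of reads per gene from STAR, aligned to GRCm38 (mm10). FastQC 0.11.9 is also named in the submitters' processing notes. Reads with several best positions are not counted, and the annotation release and strand setting are not given in the sources used here. Symbols, types and exon lengths came from GENCODE M21, and 147 identifiers had no entry there.

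The 12 libraries formed 4 groups. Genes were filtered with filterByExpr (21440 kept), scaled with TMM factors and tested with edgeR 4.0.16 in R 4.3.3 in 1 quasi-likelihood fit of the 4 groups, with Benjamini-Hochberg adjusted p under 0.05 called. DESeq2 1.42.0 and the other alternatives in the closing section were also run, and 1 (mitochondrial genes with few shared 50-mers) was chosen after seeing the data. P-values measure the spread between these libraries, of which the acute ones pool several mice. CPM are TMM-scaled, FPKM are CPM per kilobase of exon, and log2 CPM used a prior count of 2. Named genes were the 13 mitochondrial genes, genes with a tissue-restricted partner, the catalytic core, in each comparison the 5 smallest p per direction, and the 3 highest members of each complex; Ndufa8, Atp5o, Ndufb8, Polg, Epas1 and Ucp2 were named after their values were seen, as were the members with overlapping exons. 1 gene that the rule names is not reported here. The members and lists were chosen with earlier results of these data known. Same-numbered libraries of different groups did not deviate together and were not paired. The script was tested on simulated data.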

Additional observations from a re-analysis of the deposited data

Results flagged for a closer look

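Ndufv1 in chronic CS M4, at 220 CPM, stood apart from the other 4 chronic CS libraries (179 to 184 CPM), with a gap to the nearest of 0.884 of the range of the group. Of 31 values examined in the group of 5 libraries this was the only one past Dixon's 95% limit, which chance passes in about 1 of 20 groups. Without M4 the log2 fold change of Ndufv1 in chronic CS was −0.27 (edgeR adjusted p = 0.262) in place of −0.21.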

How the results depend on the processing

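Among results that answer a comparison, 160 of 169 alternative values kept direction and side of the threshold. With DESeq2, 1 nuclear member was called in acute CS (Ndufa4l2, 2.84, adjusted p = 0.00218) and 1 in chronic CS (Cyc1, −0.44, adjusted p = 0.0238). With library sizes in place of TMM factors, the nuclear median was 0.026 in chronic CS and −0.125 in chronic RA against acute RA, the mitochondrial median was −0.15 in the latter, and as shares of all counts the nuclear sum ratio in chronic CS was 0.998. The mitochondrial median between RA groups was 0.019 with sex as a covariate and −0.22 to 0.13 with 1 library left out. With chronic CS M3 and M4 only, the mitochondrial median was −0.075 and 7 genes reversed: mt-Co1 −0.089, mt-Cytb −0.075, mt-Nd1 −0.17, mt-Nd2 −0.18, mt-Nd3 −0.52, mt-Nd4 −0.26 and mt-Nd6 −0.10. The cause of these shifts was not tested. Leaving out 1 library moved the mitochondrial median from 0.38 (without acute CS F) to 1.13 in acute CS, the nuclear median from −0.16 (without acute CS M) to 0.14 (without acute CS F), and the mitochondrial median from 0.49 to 0.83 in chronic CS. With members of few shared 50-mers only it was 0.75 and 0.63. A replicate block gave mitochondrial medians of 0.77 (acute) and 1.04 (chronic), nuclear medians of 0.00 and −0.05 and 0 calls; same-numbered libraries share only a number (correlations of deviations 0.07 in acute F and −0.04, 0.03 and 0.01 in chronic F, M1 and M2). Without a filter on low counts, 10 genes of all were called in chronic CS. Over all genes, calls in acute CS ranged from 3 (without acute RA M) to 1926 (DESeq2), with 139 from the acute groups alone and 73 with a replicate block. The median half-width of a 95% interval was 0.95 for acute and 0.72 for chronic mitochondrial changes on the log2 scale, which limits what these libraries can show.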
